A study of Arabidopsis thaliana with 24 samples.

Results

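The genes described here encode the plastid and peroxisome enzymes that make jasmonate from linolenic acid, together with the vegetative storage proteins VSP1 and VSP2. They were chosen by locus: LOX2 (AT3G45140), LOX3 (AT1G17420), LOX4 (AT1G72520), AOS (AT5G42650), AOC1 (AT3G25760), AOC2 (AT3G25770), AOC3 (AT3G25780), OPR3 (AT2G06050), VSP1 (AT5G24780) and VSP2 (AT5G24770). These are 10 of the 23865 genes listed in any of 5 deposited tables, and all 10 were listed in each of the 4 tables that give every gene tested. None was filtered out there.

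The tables come from mRNA sequencing of 24 libraries of Arabidopsis thaliana seedlings, 3 biological replicates in each of 8 groups. All seedlings were in the Col-0 background, grew for 7 days with 7 mM KNO3 and then spent 2 days without nitrogen. Wild type received a mock treatment (KCl, going by the table names), 10 mM KNO3, 0.5 mM H2O2, or KNO3 and H2O2 together, each agent for 3 h. The mutants hbi-q and nlp7-1 were given mock or KNO3 in the same way. NLP7 is a transcription factor at the head of the nitrate response, and HBI genes encode bHLH factors. Neither the HBI genes disrupted in hbi-q nor the strength of either allele is given in the labels. The series title places HBI factors and reactive oxygen between nitrate and its target genes.

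Jasmonate synthesis starts in the plastid, where 13-lipoxygenases (the LOX members) oxygenate linolenic acid, allene oxide synthase (AOS) dehydrates the product and allene oxide cyclases (AOC) close the ring to give OPDA. OPR3 then reduces OPDA in the peroxisome, and beta-oxidation shortens the side chain. The isoleucine conjugate of jasmonate binds the receptor COI1, which leads to the breakdown of JAZ repressors and frees MYC2 and related factors. In shoots the pathway is known for the response to wounding and insects, and VSP1 and VSP2, acid phosphatases that accumulate in leaves, are long-used markers of its output.

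The members lie on chromosomes 1, 2, 3 and 5. AOC1, AOC2 and AOC3 are neighbours on chromosome 3, with 1330 and 1088 bases between them in the TAIR10.1 annotation, and VSP2 and VSP1 lie 5365 bases apart on chromosome 5. The coding sequences of AOC1 and AOC2 were 90.29% identical with a longest shared run of 47 bases, and those of VSP1 and VSP2 were 89.47% identical with a run of 54 bases. AOC3 shared a run of 73 bases with AOC1 and of 50 bases with AOC2. LOX3 and LOX4 were 80.6% identical with a run of 24 bases. Reads within such runs can belong to either copy, so the split between AOC1, AOC2 and AOC3 and between VSP1 and VSP2 is uncertain.

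The sequences before the transcript start are shown for members that the results below set apart from a close copy, and for LOX2, which had the largest nitrate response of the members and was added after its values were seen. Each is the 250 bases upstream of the annotated start in the RefSeq genome TAIR10.1, written 5′ to 3′ on the gene's own strand. Capitals mark matches, on either strand, to the G-box CACGTG, its variants AACGTG and CACATG, which MYC factors are known to bind, or the GCC box GCCGCC of ERF factors.
LOX2 (chr3:16524995-16525244, plus strand): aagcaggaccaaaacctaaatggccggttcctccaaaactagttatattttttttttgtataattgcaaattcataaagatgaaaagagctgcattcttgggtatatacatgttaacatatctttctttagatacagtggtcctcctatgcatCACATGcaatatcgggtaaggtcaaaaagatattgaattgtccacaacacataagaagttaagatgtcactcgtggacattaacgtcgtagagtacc
LOX3 (chr1:5977073-5977322, plus strand): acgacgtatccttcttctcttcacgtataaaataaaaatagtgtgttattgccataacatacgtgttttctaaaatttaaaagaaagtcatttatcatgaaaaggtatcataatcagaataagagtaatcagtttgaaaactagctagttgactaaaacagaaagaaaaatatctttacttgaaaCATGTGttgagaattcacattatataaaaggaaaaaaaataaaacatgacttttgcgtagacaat
LOX4 (chr1:27308263-27308512, plus strand): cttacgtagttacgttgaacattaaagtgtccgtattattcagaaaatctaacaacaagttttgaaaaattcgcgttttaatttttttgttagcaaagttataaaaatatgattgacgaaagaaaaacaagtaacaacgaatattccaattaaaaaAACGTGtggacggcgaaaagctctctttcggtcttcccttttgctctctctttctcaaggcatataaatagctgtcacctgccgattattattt
AOC1 (chr3:9403529-9403778, plus strand): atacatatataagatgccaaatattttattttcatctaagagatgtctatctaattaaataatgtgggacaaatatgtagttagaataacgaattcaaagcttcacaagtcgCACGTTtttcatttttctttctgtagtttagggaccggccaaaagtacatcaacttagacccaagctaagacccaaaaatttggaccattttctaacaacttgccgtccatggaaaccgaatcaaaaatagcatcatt
AOC2 (chr3:9406419-9406668, plus strand): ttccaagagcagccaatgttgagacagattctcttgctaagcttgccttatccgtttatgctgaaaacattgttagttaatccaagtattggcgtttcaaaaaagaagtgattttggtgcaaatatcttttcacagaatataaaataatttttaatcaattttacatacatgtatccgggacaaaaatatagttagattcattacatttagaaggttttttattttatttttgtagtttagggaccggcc
AOC3 (chr3:9408910-9409159, plus strand): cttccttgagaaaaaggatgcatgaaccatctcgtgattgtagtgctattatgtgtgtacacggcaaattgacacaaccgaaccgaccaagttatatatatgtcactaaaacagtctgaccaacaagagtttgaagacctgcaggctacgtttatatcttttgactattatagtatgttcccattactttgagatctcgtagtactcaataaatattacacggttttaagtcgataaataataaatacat
VSP1 (chr5:8509202-8509451, minus strand): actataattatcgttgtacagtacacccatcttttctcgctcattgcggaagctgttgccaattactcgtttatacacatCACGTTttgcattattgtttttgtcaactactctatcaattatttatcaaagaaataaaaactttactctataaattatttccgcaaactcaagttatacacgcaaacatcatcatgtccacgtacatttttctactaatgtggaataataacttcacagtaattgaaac
VSP2 (chr5:8502225-8502474, minus strand): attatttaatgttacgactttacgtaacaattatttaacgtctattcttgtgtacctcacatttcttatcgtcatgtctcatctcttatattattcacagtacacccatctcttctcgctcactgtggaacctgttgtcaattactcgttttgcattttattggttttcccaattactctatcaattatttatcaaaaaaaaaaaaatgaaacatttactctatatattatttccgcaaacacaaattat

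The window of LOX2 held CACATG from 97 to 92 bases before the start, and that of LOX3 held it, on the other strand, from 65 to 60 bases before. AACGTG stood 94 to 89 bases before LOX4, and on the other strand 138 to 133 bases before AOC1 and 170 to 165 bases before VSP1. AOS, whose window is not printed, had CACGTG in the last 6 bases before its start. Among 27443 gene windows of this length, 6.486% held CACGTG, 7.539% AACGTG, 11.09% CACATG and 1.869% GCCGCC, against 1, 3, 2 and 0 of the 10 members. AOC2, AOC3, OPR3 and VSP2 held none of these letters in the window. A match describes letters, and binding was not measured. Shared runs were sought within the windows only. The run of AOC1 and AOC2 given next meets the end of the AOC2 window, so it may be longer. AOC1 and AOC2 share the run tgtagtttagggaccggcc, 19 bases long, which begins 117 bases before the start of AOC1 and 19 bases before that of AOC2. VSP1 and VSP2 share tactctatcaattatttatcaaa, 23 bases long, which begins 142 and 76 bases before their starts.

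No values per library were analysed here, so levels are group means recovered from the authors' deposited tables (base means, fold changes and standard errors), on the scale of counts divided by size factors. Levels of wild type and hbi-q come from 1 joint fit of 12 libraries. The groups with H2O2 come from another fit of 6 libraries and were put on that scale, and nlp7-1 levels stand on a scale of their own. The recovered wild-type mock level differed from that in the H2O2 table with an SD of 0.0440 on the log2 scale over 1555 genes, after a common offset. Standard errors of levels are on the log2 scale, each with 3 libraries a group. Depth of single libraries is unknown.

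The mutated genes were read first. NLP7 stood at 277 in nlp7-1 mock and 615 after KNO3, against 889 and 1076 in wild type, on separate scales and with no test. HBI1 stood at 75.4 in hbi-q mock against 33.7 in wild-type mock, and at 1355 and 1332 after KNO3, so the HBI1 transcript was not lower in hbi-q and does not check that label. Shoot and root markers differed between groups. The summed level of 21 photosynthesis genes was 56634 in wild-type mock, 108939 with KNO3, 101576 with H2O2 and 90457 with both agents. It was 65662 in hbi-q mock and 128830 after KNO3, and 54714 and 70526 in nlp7-1 on its own scale. For 19 root genes the sums were 8551, 9138, 4664 and 5238 in the same wild-type order. They were 9173 and 9814 in hbi-q mock and KNO3, and 15171 and 12192 in nlp7-1 on its own scale. No marker was under 1 in any group. In whole seedlings, fewer cells of a type and less RNA per cell cannot be told apart.

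**Figure D1:**
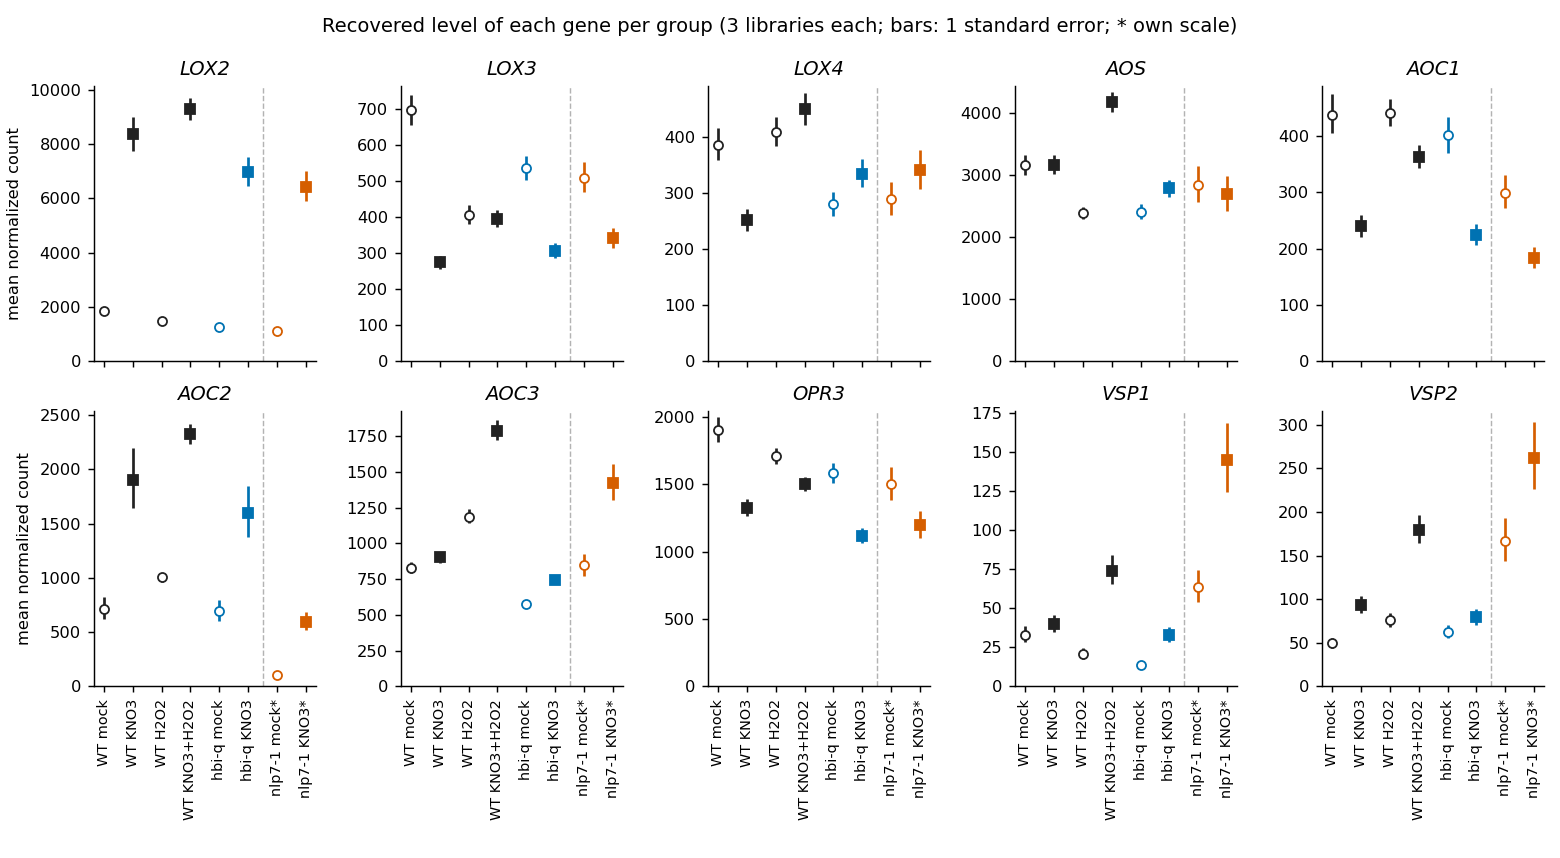
Mean normalized count of each gene (vertical axis, from 0) in the 8 groups, with bars of 1 standard error over 3 libraries. Open circles had no KNO3, filled squares had it, and nlp7-1 (right of the dashed line) is on its own scale. LOX2 stands at 1864 in wild-type mock and 8356 with KNO3, while LOX3 goes from 697 to 274.

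Of the 10 genes, LOX2 and AOC2 rose with nitrate in every background, and the other synthesis genes except LOX3 moved less than 2-fold. Without H2O2, LOX3 fell in wild type, hbi-q and nlp7-1, by at least 2-fold in wild type only. In wild type, the authors' deposited table called 2 members higher and 1 lower at an adjusted p under 0.05 with at least a 2-fold change, where 14.9% of all genes were called, 9.44% higher and 5.51% lower. For hbi-q, the authors' deposited table called 3 members higher and 0 lower, against 16.1% of genes (10.1% and 6.06%). For nlp7-1, the authors' deposited table again called 3 and 0, against 15.7% of genes (9.03% and 6.63%). For KNO3 given with H2O2, compared with H2O2 alone, the authors' deposited table called 4 higher and 0 lower, against 10.7% of genes (6.54% and 4.14%). Without the fold minimum 7 members passed in wild type, 7 in hbi-q, 6 in nlp7-1 and 8 with H2O2 in the authors' deposited tables, where 58.2%, 58.3%, 42.6% and 53.3% of all genes did. The median log2 fold change of the members was 0.06 in wild type, 0.30 in hbi-q, 0.44 in nlp7-1 and 0.70 with H2O2, while the median of all genes lay between -0.01 and 0.00 in these authors' deposited tables. The adjusted p-values of these tables are from DESeq2, with Benjamini-Hochberg adjustment.

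LOX2, the chloroplast lipoxygenase that supplies most wound jasmonate in leaves, was the most strongly induced member in wild type. Its level was 1864 in wild-type mock and 8356 after KNO3, 1502 with H2O2 and 9285 with both agents. In hbi-q it was 1248 and 6981, and in nlp7-1 it was 1124 and 6433 on the separate scale, with standard errors of 0.07 to 0.13. Every group with KNO3 was more than 3 times any group without it within its scale. LOX2 rose 4.48-fold in wild type in the authors' deposited table (2.16 ± 0.15 on the log2 scale, adjusted p = 2.63e-43). In the authors' deposited tables it also rose in hbi-q by 2.48 ± 0.16, in nlp7-1 by 2.52 ± 0.18 and with H2O2 by 2.63 ± 0.09. The shoot markers did not follow this order. Their median nitrate response was 1.03 in wild type, 0.93 in hbi-q, 0.07 in nlp7-1 and -0.13 with H2O2 in the authors' deposited tables, and their part in the LOX2 response was not tested.

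LOX3 and LOX4 are a pair of related lipoxygenases known for roles in flower fertility and in wounded leaves. LOX3 stood at 697 in wild-type mock and 274 after KNO3, 407 with H2O2 and 395 with both agents. In hbi-q it went from 536 to 307, and in nlp7-1 from 510 to 341, with standard errors of 0.09 to 0.12. Wild-type mock thus had the highest level of the 6 groups on the common scale, and with H2O2 present the groups with and without KNO3 stood close together. The authors' deposited table gave a fall of LOX3 in wild type of -1.35 ± 0.13 (adjusted p = 1.41e-24). The falls in hbi-q (-0.80 ± 0.13) and nlp7-1 (-0.58 ± 0.16) in the authors' deposited tables were under 2-fold, with adjusted p-values of 1.89e-09 and 0.00162. With H2O2 the authors' deposited table gave -0.04 ± 0.13 (adjusted p = 0.821).

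LOX4 had its lowest level in wild type after KNO3. The level was 387 in wild-type mock, 252 after KNO3, 410 with H2O2 and 450 with both agents. It was 280 and 335 in hbi-q and 289 and 341 in nlp7-1, with standard errors of 0.09 to 0.15. The sign of the nitrate response therefore differed between wild type and the other settings. In the authors' deposited tables it was -0.62 ± 0.16 in wild type (adjusted p = 0.000166, under 2-fold), 0.26 ± 0.16 in hbi-q, 0.24 ± 0.21 in nlp7-1 and 0.14 ± 0.13 with H2O2, and the last 3 had adjusted p-values of 0.148 to 0.399.

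AOS, encoded by a single gene whose loss blocks jasmonate synthesis, did not pass the 2-fold minimum in any table. Its levels were 3162 in wild-type mock, 3170 after KNO3, 2387 with H2O2 and 4173 with both agents. In hbi-q they were 2412 and 2786, and in nlp7-1 2842 and 2691, with standard errors of 0.06 to 0.15. Nitrate moved AOS by 0.00 ± 0.10 in wild type and by 0.81 ± 0.08 in the presence of H2O2 in the authors' deposited tables, the latter with an adjusted p of 1.93e-22.

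The 3 tandem cyclase genes responded differently from each other. AOC1 stood at 437 in wild-type mock, 239 after KNO3, 440 with H2O2 and 363 with both agents, at 401 and 225 in hbi-q and at 299 and 184 in nlp7-1. Each nitrate group of AOC1 was below its control. The changes in the authors' deposited tables were -0.87 ± 0.16 in wild type, -0.84 ± 0.17 in hbi-q, -0.70 ± 0.20 in nlp7-1 and -0.28 ± 0.11 with H2O2, all under 2-fold with adjusted p-values of 4.58e-07 to 0.0248.

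AOC2 had 713 in wild-type mock, 1899 after KNO3, 1004 with H2O2 and 2325 with both agents. Its levels were 692 and 1595 in hbi-q, and 105 and 596 in nlp7-1, where both were low on that table's own scale. AOC2 rose in the authors' deposited tables by 1.41 ± 0.30 in wild type, 1.204 ± 0.296 in hbi-q, 2.51 ± 0.28 in nlp7-1 and 1.21 ± 0.09 with H2O2, with adjusted p-values of at most 0.000123. The standard errors of AOC2 went with a wide spread between replicates. The coefficient of variation between replicates, from the fitted dispersion, was 24.9% in the joint fit, against a median of 5.63% over 3122 genes of similar level (99.97th percentile). It was 6.76% in the fit with H2O2 and 23.0% in the nlp7-1 fit. Single libraries could not be examined, so which of them carry this spread was not tested.

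AOC3, the third cyclase, did not reach 2-fold with nitrate in any table. Its level was 830 in wild-type mock and 901 after KNO3, 1187 with H2O2 and 1788 with both agents, 572 and 745 in hbi-q, and 847 and 1424 in nlp7-1. The group with both agents was highest on the common scale and hbi-q mock lowest. The authors' deposited tables gave 0.12 ± 0.09 in wild type (adjusted p = 0.234), 0.38 ± 0.09 in hbi-q, 0.75 ± 0.18 in nlp7-1 and 0.59 ± 0.08 with H2O2, the last 3 with adjusted p-values of 4.83e-05, 0.000188 and 3.45e-12 and all under 2-fold.

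OPR3, which makes the last reduction before beta-oxidation, was lower with nitrate throughout but by little. Its level went from 1903 to 1326 in wild type, from 1707 to 1501 with H2O2, from 1580 to 1116 in hbi-q and from 1498 to 1197 in nlp7-1, with standard errors of 0.05 to 0.12. The changes in the authors' deposited tables were -0.52 ± 0.10, -0.19 ± 0.07, -0.50 ± 0.10 and -0.32 ± 0.17 in that order, and that of nlp7-1 did not pass (adjusted p = 0.104).

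VSP1 and VSP2 had the lowest levels of the members in every wild-type and hbi-q group, but VSP2 did not in nlp7-1. VSP1 stood at 33.2 in wild-type mock, 39.8 after KNO3, 20.8 with H2O2 and 74.0 with both agents, at 13.5 and 32.6 in hbi-q, and at 63.4 and 145 in nlp7-1, with standard errors of 0.18 to 0.27. Nitrate groups were above their controls in every setting, least so in wild type without H2O2. In the authors' deposited tables VSP1 moved by 0.26 ± 0.29 in wild type (adjusted p = 0.459), and rose by 1.28 ± 0.35 in hbi-q, 1.19 ± 0.32 in nlp7-1 and 1.83 ± 0.30 with H2O2, with adjusted p-values of 0.000553, 0.000874 and 6.01e-09.

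VSP2 stood at 49.5 in wild-type mock, 93.3 after KNO3, 76.1 with H2O2 and 180 with both agents, at 62.4 and 79.1 in hbi-q, and at 167 and 262 in nlp7-1, with standard errors of 0.13 to 0.21. Only the table with H2O2 called it. The authors' deposited tables gave 0.91 ± 0.23 in wild type (adjusted p = 0.000200, under 2-fold), 0.34 ± 0.23 in hbi-q, 0.65 ± 0.30 in nlp7-1 and 1.24 ± 0.20 with H2O2 (adjusted p = 1.19e-09).

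**Figure D2:**
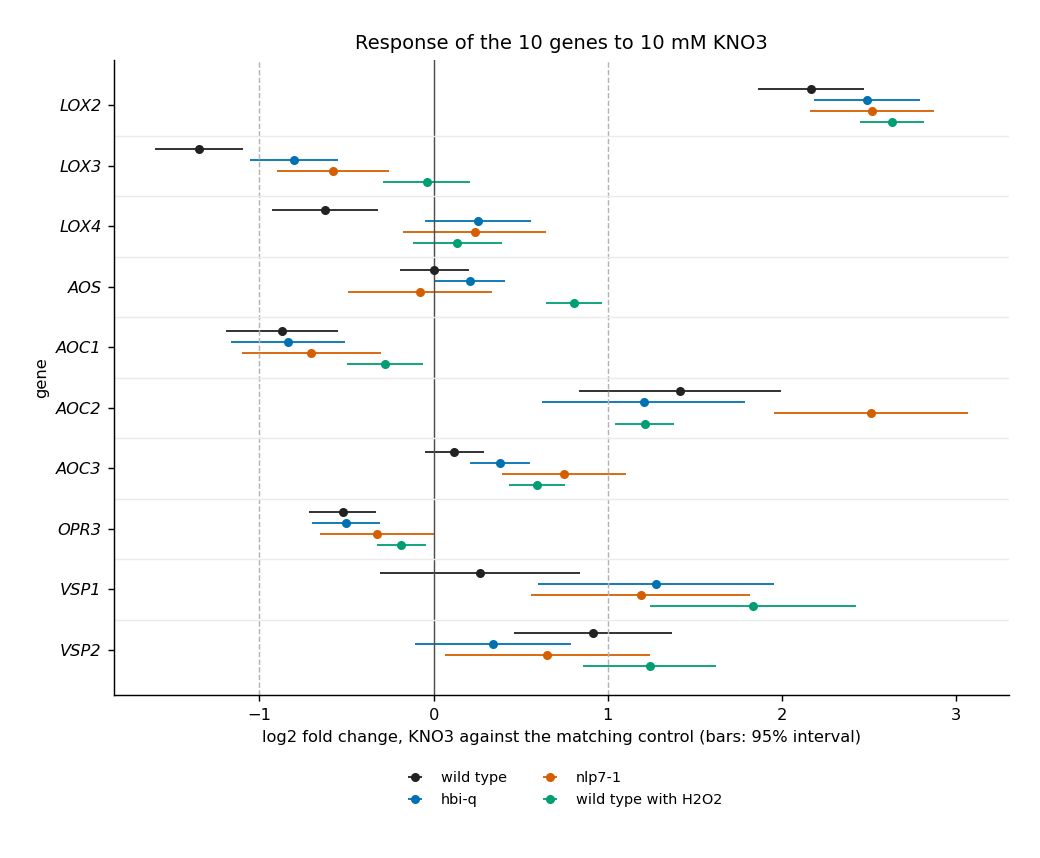
The log2 fold change with KNO3 (horizontal axis) of each gene in the authors' deposited tables, with 95% intervals, for wild type, hbi-q, nlp7-1 and wild type with H2O2. Dashed lines mark a 2-fold change. LOX2 lies beyond the upper line in all 4 settings and LOX3 beyond the lower line in wild type alone.

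Per kilobase of transcript, the order of levels changed with nitrate. In wild-type mock AOS was highest at 1556 normalized counts per kilobase, followed by OPR3 at 1218, LOX2 at 585, AOC2 at 549, AOC3 at 500, AOC1 at 367, LOX3 at 226, LOX4 at 127, VSP2 at 32.8 and VSP1 at 25.2. Within that order the 95% interval of the gap included 0 between LOX2 and AOC2, between AOC2 and AOC3 and between VSP2 and VSP1, and for no other pair of neighbours. After KNO3 LOX2 was highest at 2623 per kilobase, ahead of AOS at 1560 and AOC2 at 1461, of which the last 2 were not apart.

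The next comparisons ask whether a mutant or H2O2 altered the nitrate response. Each difference is 1 log2 fold change minus another, tested over all genes with a two-sided normal test and Benjamini-Hochberg adjustment, and called at an adjusted p under 0.05. A higher response can therefore be a weaker fall as well as a stronger rise. The 3 differences from wild type take the same wild-type response, so they share its chance error, and their overlap is not a result. In nlp7-1 against wild type, 3 of the 10 members responded higher and 0 lower, against 11.7% of 21790 genes called, 4.33% higher and 7.38% lower. LOX3 differed by 0.77 ± 0.21 (adjusted p = 0.00627), LOX4 by 0.86 ± 0.26 (adjusted p = 0.0170) and AOC3 by 0.63 ± 0.20 (adjusted p = 0.0235). The difference for AOC2, 1.096 ± 0.411, missed the threshold (adjusted p = 0.0580) and passed it when only genes with a base mean over 100 were tested (adjusted p = 0.0480). The median difference was 0.49 over the members and -0.03 over all genes. Test scores of this comparison were wider than the normal distribution, with a robust SD of 1.88, and after division by it 0 members were called, with 1 at an unadjusted p under 0.05. Underestimated error and real differences in many genes both widen scores over all genes. The scaling, here and below, cannot tell them apart.

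In hbi-q against wild type, LOX4 alone of the 10 responded higher, by 0.88 ± 0.22 (adjusted p = 0.00241), and 0 responded lower, against 5.61% of 22954 genes called, 2.13% higher and 3.49% lower. LOX3 differed by 0.54 ± 0.18 (adjusted p = 0.0506) and VSP1 by 1.01 ± 0.45 (adjusted p = 0.211). The robust SD of the scores was 1.295, and after division by it the LOX4 call was lost (adjusted p = 0.0764). The difference between the mutants themselves does not use the wild type. It was called for AOC2 alone, at 1.305 ± 0.411 (adjusted p = 0.0434), higher in nlp7-1 than in hbi-q, against 3.94% of 21790 genes (1.62% higher and 2.32% lower). For LOX3 and LOX4 the difference between the mutants was 0.22 (95% interval -0.18 to 0.63) and -0.02 (-0.53 to 0.49). The AOC2 call rests on the fits in which its replicates spread most, and it was lost after division by the robust SD of 1.60.

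With H2O2 against without it, 8 of the 10 members had a higher nitrate response and 0 a lower one, against 24.8% of 22204 genes called, 11.4% higher and 13.4% lower. Among the 8, LOX3 had -1.35 without H2O2 and -0.04 with it, AOC1 -0.87 and -0.28, and OPR3 -0.52 and -0.19. Their higher response was thus a weaker fall or none. LOX4 had -0.62 and 0.14, while LOX2, AOS, AOC3 and VSP1 had values above 0 in both settings. LOX3 differed by 1.31 ± 0.18 (adjusted p = 2.30e-11) and AOS by 0.80 ± 0.13 (adjusted p = 1.76e-08). VSP1 differed by 1.57 ± 0.42, LOX4 by 0.76 ± 0.20, AOC1 by 0.59 ± 0.20, AOC3 by 0.47 ± 0.12, LOX2 by 0.46 ± 0.18 and OPR3 by 0.34 ± 0.12, with adjusted p-values of 0.000648 to 0.0433. AOC2 (-0.20 ± 0.31) and VSP2 (0.32 ± 0.30) did not pass. LOX3 and AOS kept their calls after division by the robust SD of 1.97, and the other 6 did not. The share of all genes called after that division is not given. Photosynthesis markers moved the other way in the same test, with 21 of 21 called lower and a median of -1.10, and of 19 root markers 5 were higher and 2 lower. The part of either organ in the members' values was not tested.

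**Figure D3:**
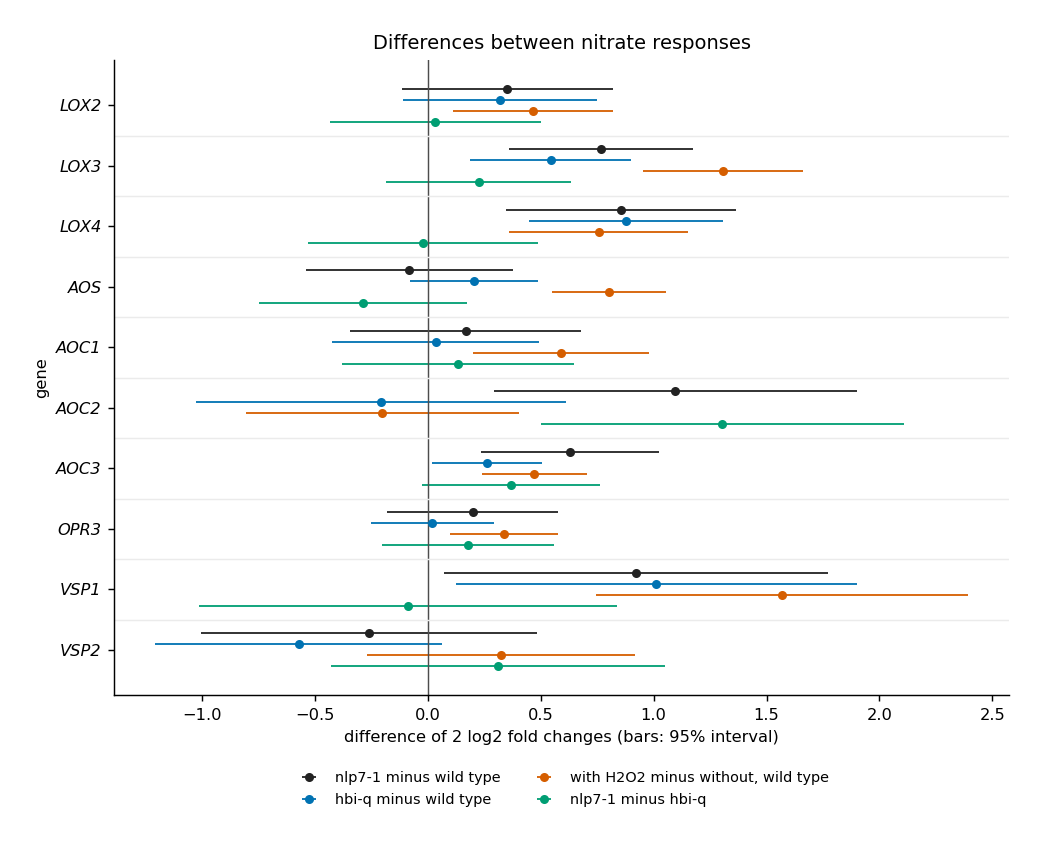
Difference between 2 nitrate responses on the log2 scale (horizontal axis) for each gene, with 95% intervals, for nlp7-1 and hbi-q against wild type, with against without H2O2, and nlp7-1 against hbi-q. The 3 differences that use wild type share its response, so the closeness of LOX4 in them (0.86, 0.88 and 0.76) is not a result. Between the mutants LOX4 lies at -0.02.

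The effect of H2O2 itself was read from levels. The authors' deposited table of H2O2 against mock lists only its 1810 called genes, 8.11% of a background of 22311, and 0 of the 10 members are among them, which leaves changes under 2-fold or above the adjusted p possible. Levels set across tables gave the following values, with no test because the tables were normalized separately. Their standard errors and intervals leave out the error of setting levels across tables, so they are too narrow. With H2O2 alone, 5 members were above mock and 5 below, with a median of -0.07. LOX3 was lowest at -0.78 ± 0.12, VSP1 had -0.68 ± 0.32 and AOS -0.41 ± 0.09, while AOC3 had 0.52 ± 0.08 and VSP2 0.62 ± 0.23. With KNO3 present, all 10 members were higher with H2O2 than without, from 0.15 ± 0.13 for LOX2 to 0.99 ± 0.08 for AOC3, with a median of 0.56 against 0.02 over 22204 genes. LOX4 had 0.84 ± 0.14, VSP1 0.89 ± 0.27 and VSP2 0.95 ± 0.20 there. These H2O2 values and the nitrate response with against without H2O2 come from the same wild-type libraries. They restate the same group means and are not separate observations. The group with both agents held the highest level of 7 of the 10 members among the 6 groups on the common scale. For LOX2 and AOC2 the 95% interval of the gap to KNO3 alone included 0 (-0.10 to 0.40 and -0.13 to 0.72). So did that of LOX4 to H2O2 alone (-0.12 to 0.39). The share of all genes highest in that group is not given. Summed root markers were 9138 with KNO3 and 5238 with both agents, and shoot markers 108939 and 90457. How far that shift bears on these values was not tested.

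Within the joint fit, hbi-q could be compared with wild type at the same treatment. In mock, 7 of 10 members were lower in hbi-q and 0 higher, against 13.1% of 22848 genes called, 7.44% higher and 5.66% lower. AOC3 was lower by 0.54 ± 0.09 on the log2 scale (-0.54, adjusted p = 7.16e-08), VSP1 had -1.301 ± 0.346 (adjusted p = 0.00267), LOX2 -0.58 ± 0.16 (adjusted p = 0.00314) and AOS -0.39 ± 0.10 (adjusted p = 0.00208). LOX3 (-0.38 ± 0.12), LOX4 (-0.46 ± 0.15) and OPR3 (-0.27 ± 0.10) had adjusted p-values of 0.0217, 0.0250 and 0.0467. AOC1, AOC2 and VSP2 did not pass. When the error of the recovered levels was added to the standard errors, the calls of LOX2, AOC3 and VSP1 remained, 3 in all. After division of the scores by their robust SD of 1.502, AOC3 alone passed. The shares of all genes called at these settings are not given, so the remaining calls have no background.

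After KNO3, AOC3 was the only member called between the genotypes, at -0.27 ± 0.09 (adjusted p = 0.0186), against 12.4% of genes called, 5.36% higher and 7.02% lower, and it was lost with the recovery error added (adjusted p = 0.273). LOX4 was 0.41 ± 0.16 higher in hbi-q and missed the threshold (adjusted p = 0.0590). The mock comparison and the difference in nitrate response use the same 6 mock libraries, so a lower hbi-q mock level and a higher hbi-q response are not separate observations. In mock, 7 of 21 photosynthesis markers were higher in hbi-q and 0 lower, with a median of 0.25, and 0 of 19 root markers were called, with 4 at an unadjusted p under 0.05.

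In the joint fit AOC2 had the widest replicate spread of the members, and the others had less. There the coefficient of variation was 6.44% for AOC3, 7.94% for OPR3, 8.45% for AOS, 9.70% for LOX3, 11.9% for LOX4, 12.8% for AOC1, 12.996% for LOX2, 15.2% for VSP2 and 18.5% for VSP1. AOC1, LOX4 and LOX2 were also more variable than 97% of genes of similar level there, at percentiles of 99.5, 98.8 and 97.7. In the nlp7-1 fit the members ran from 12.98% to 25.0%, and the median over genes with a base mean over 100 was 14.2%.

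**Figure D4:**
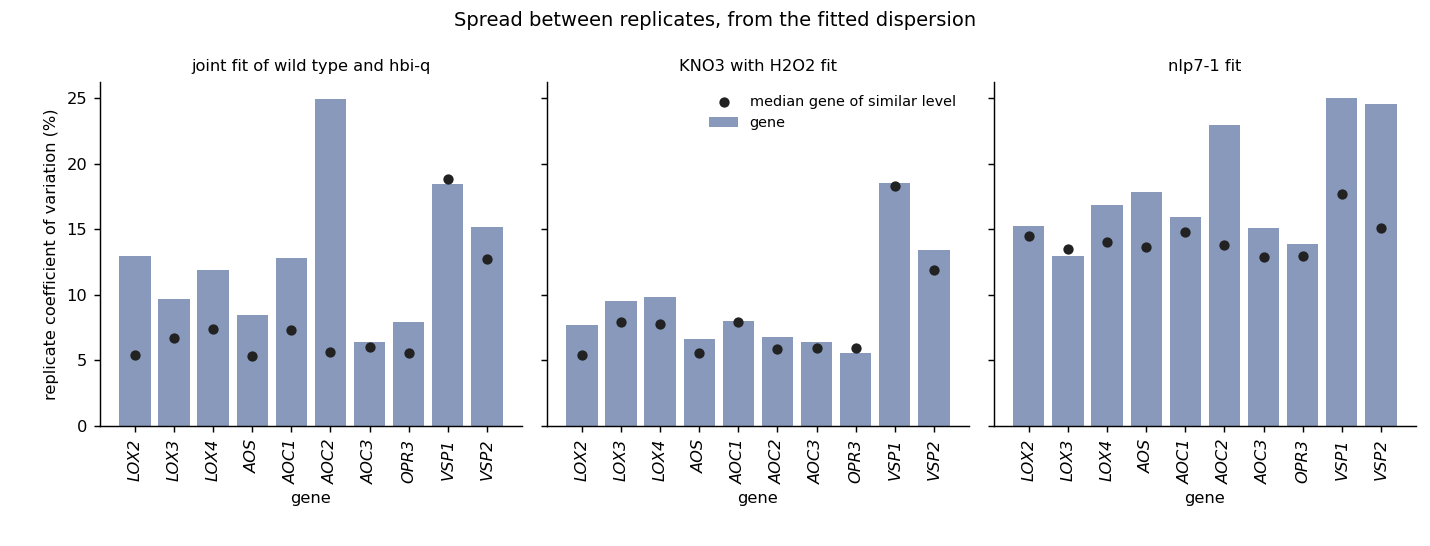
Coefficient of variation between replicates (vertical axis, percent) of each gene in 3 fits, from the dispersion recovered out of the authors' standard errors (bars), with the median gene of similar level (points). AOC2 reaches 24.9% in the joint fit and 6.76% in the fit with H2O2.

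The rest of the pathway was counted in lists drawn up by role. Calls of response and genotype differences in these lists are given without division by the robust SD, which removed most such calls among the members. The recovery error was not added to them either. Of 20 other synthesis and conjugation genes, of which 19 had a value, the authors' deposited table on wild type called 1 higher and 4 lower with nitrate, against 14.9% of all genes called, with a median of -0.43. FAD8, a plastid desaturase that makes linolenic acid, rose by 1.49 ± 0.11 there, and by 1.83 in hbi-q, 1.91 in nlp7-1 and 1.54 with H2O2 in the authors' deposited tables. OPR2, an OPDA reductase relative of OPR3 in the cytosol, fell by 1.39 ± 0.09 in wild type in the authors' deposited table (-1.39). JMT, which methylates jasmonate, had -1.46 ± 0.37 there. JAR1, which joins jasmonate to isoleucine, was called lower in the authors' deposited tables for hbi-q (-1.18 ± 0.07), nlp7-1 (-1.304 ± 0.163) and with H2O2 (-1.07 ± 0.07), and had -0.93 ± 0.07 in wild type, under 2-fold. The paralogues LOX6 (-0.36 ± 0.07) and AOC4 (-0.21 ± 0.09) were under 2-fold in the authors' deposited table on wild type. OPR1 was listed at 1.79 ± 0.10 in the authors' deposited table of H2O2 against mock.

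Genes that break down or inactivate jasmonate gave mixed nitrate responses. In wild type the authors' deposited table called 1 of 10 higher and 2 lower, against 14.9% of all genes, and there JOX4, a jasmonate oxidase, rose by 2.38 ± 0.48 and the oxidase JOX3 and the hydroxylase CYP94B3 had -1.81 ± 0.24 and -1.26 ± 0.22. In nlp7-1 the authors' deposited table called 2 higher and 0 lower, against 15.7% of all genes, JOX4 by 4.41 ± 0.80 and the hydroxylase CYP94B1 by 1.81 ± 0.24. JOX4 had low base means, 18.9 in the joint fit and 23.0 in the nlp7-1 fit. With H2O2 against without, 8 of the 10 responded higher and 0 lower, against 24.8% of all genes called and 11.4% higher, among them JOX3 by 2.38 ± 0.32 (adjusted p = 5.68e-12), CYP94B3 by 1.82 ± 0.27 (adjusted p = 9.57e-10) and ILL6, an amidohydrolase of jasmonate conjugates, by 1.38 ± 0.21 (adjusted p = 3.46e-09). In mock, 5 of the 10 were lower in hbi-q and 0 higher, against 13.1% of all genes called and 5.66% lower. Among the named genes CYP94B3 had -0.86 ± 0.21 (adjusted p = 0.000856). Scores of these difference tests were not scaled by their robust SD.

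JAZ repressors are both the brakes of the pathway and early targets of it. In the authors' deposited tables, 0 of 13 were called in wild type, 1 in hbi-q and 5 in nlp7-1, all higher, against 14.9%, 16.1% and 15.7% of all genes. Among those 5, JAZ13 and JAZ8 were near the floor, with base means of 4.05 and 4.45. In wild type 8 of the 13 passed DESeq2's adjusted p in the authors' deposited table but stayed under 2-fold (8 also at the unadjusted p). With no fold minimum, 58.2% of all genes passed there. Between nlp7-1 and wild type, 3 differed, against 11.7% of all genes, namely JAZ5 by 1.64 ± 0.33 (adjusted p = 8.46e-05), JAZ10 by 1.44 ± 0.33 (adjusted p = 0.000597) and JAZ1 by 0.83 ± 0.23 (adjusted p = 0.00620). With H2O2 against without, 6 of the 12 listed responded higher and 0 lower, against 24.8% of all genes called and 11.4% higher, led by JAZ10 at 1.51 ± 0.29 (adjusted p = 2.37e-06) and JAZ5 at 1.34 ± 0.26 (adjusted p = 2.88e-06). In mock 5 of 13 were lower in hbi-q and 0 higher, against 13.1% of all genes called and 5.66% lower, including JAZ5 at -1.04 ± 0.20 (adjusted p = 8.22e-06). The JAZ differences, too, are given without scaling by the robust SD.

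In wild type, receptor and transcription factor genes fell or stayed under 2-fold. In the authors' deposited table on wild type, 3 of 11 were lower with nitrate, against 5.51% of all genes, namely the NAC factors ANAC055 (-2.68 ± 0.20) and ANAC019 (-1.66 ± 0.11), which act below MYC2, and MYC5 (-2.53 ± 0.91). MYC5 was near the floor, with a base mean of 5.71. The receptor COI1 had -0.44 ± 0.07 and MYC2 -0.48 ± 0.07 in that authors' deposited table, and MYC2 was not listed for nlp7-1. Among 7 other wound and MYC branch genes 0 were called in wild type or hbi-q, against 14.9% and 16.1% of all genes. In each, 2 of the 7 passed DESeq2's adjusted p but stayed under 2-fold, with 3 and 2 at an unadjusted p under 0.05. With no fold minimum, 58.2% and 58.3% of all genes passed. TAT3, a tyrosine aminotransferase induced by jasmonate, rose by 1.58 ± 0.21 in the authors' deposited table on nlp7-1. With H2O2 the authors' deposited table called NATA1, an ornithine acetyltransferase, higher by 3.70 ± 0.80, at a low base mean of 11.3. Of 5 ERF branch genes the factor ERF1 fell by 1.44 ± 0.33 in wild type in the authors' deposited table (-1.44), and was listed at 2.13 ± 0.21 with H2O2 against mock. The defensin PDF1.2a rose by 1.86 ± 0.44 with nitrate in wild type in the authors' deposited table.

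**Figure D5:**
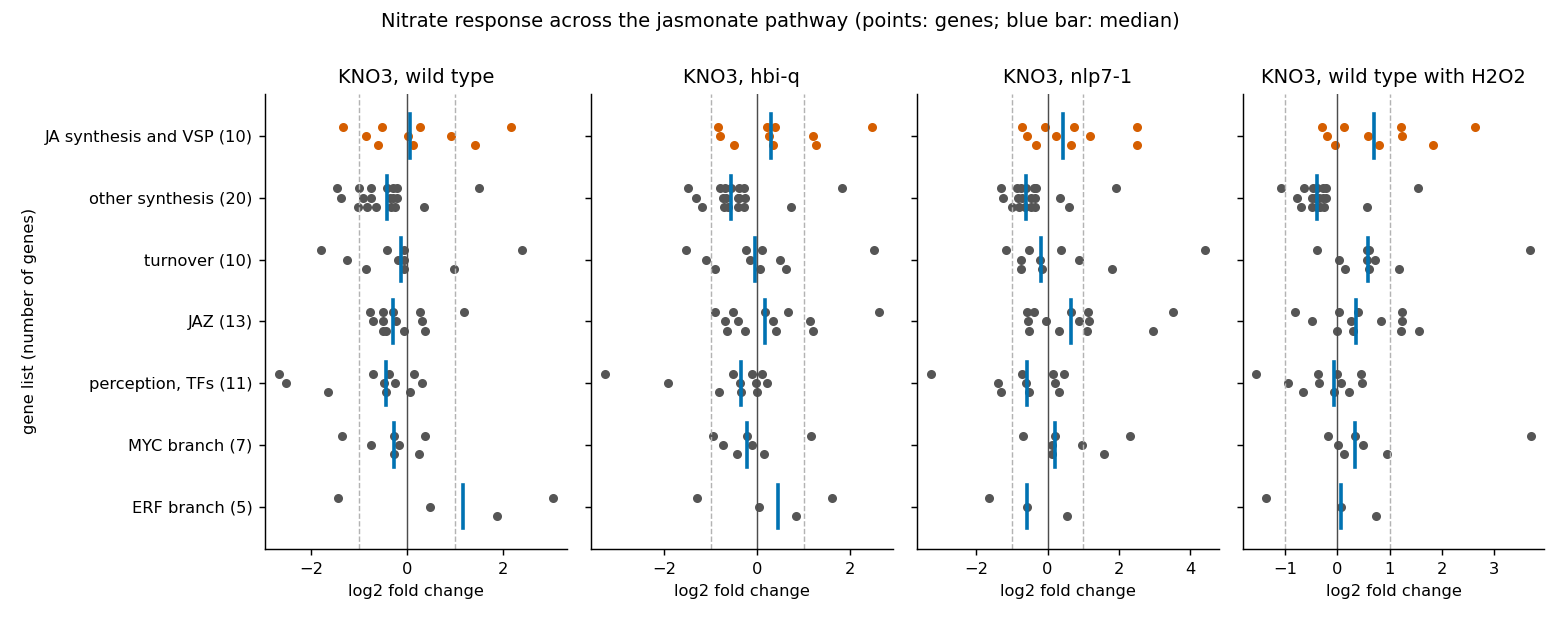
The log2 fold change with KNO3 (horizontal axis) of the jasmonate genes in each list (rows), in the authors' deposited tables for wild type, hbi-q, nlp7-1 and wild type with H2O2. Points are genes, blue bars medians and dashed lines a 2-fold change, and the median of the 10 synthesis and VSP genes is 0.06, 0.30, 0.44 and 0.70 from left to right.

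The genes whose 4 nitrate responses lay closest to those of LOX2, among 15341 genes with a base mean over 100, were CAX1, a vacuolar calcium exchanger, at a root mean square difference of 0.14 on the log2 scale, and AT5G59240, AT1G15870, AT4G04940 and AT3G06530 at 0.16 to 0.19. CAX1 had 2.12, 2.25, 2.65 and 2.59 in the authors' deposited tables for wild type, hbi-q, nlp7-1 and H2O2. Closest to VSP2 was MSRB5, a methionine sulfoxide reductase, at 0.12, with AT1G31710, AT3G57010, AT4G13650 and AT5G15010 at 0.17 to 0.20. These distances describe 4 values per gene.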

How the data were processed

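Transcripts were measured by mRNA sequencing in 24 libraries, 3 in each of 8 groups assigned from the labels. Per the submitters' processing notes, the authors used HISAT, Bowtie2, HTSeq and DESeq2 with TAIR10, with versions not given in the sources used here. Each of the 5 deposited tables holds, per the file headers, a base mean (signal: counts divided by size factors, averaged by the authors), a log2 fold change with its standard error, a test score and p-values, raw and Benjamini-Hochberg adjusted, all from the authors' DESeq2 fits. The p-values measure the spread between the labelled biological replicates. No values per library were analysed here, depth per library is unknown, and strandedness is not given.

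Calls in the authors' tables need an adjusted p under 0.05 and at least a 2-fold change, and calls in tests of differences an adjusted p under 0.05 over all genes tested (two-sided, normal). Base means in the hbi-q and wild-type tables were equal for each of 22954 genes, which points to 1 joint fit of 12 libraries. Group levels and dispersions were solved from base mean, fold changes and standard errors, taking 3 libraries a group and, for nlp7-1, a fit of 6. This recovery was chosen after seeing the data, as were the tests of hbi-q against wild type within a treatment. It left out 106 genes with no positive dispersion. Scripts were tested on simulated data. Upstream windows of 250 bases, transcript lengths and coding sequences come from TAIR10.1, matched by locus, and the files carry no coordinates. No protein sequence was used.

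The members and lists were chosen with earlier results of these data known. All members are named; from each other jasmonate list, up to 3 called genes with the largest change per comparison could be named, besides the paralogues LOX6, AOC4, OPR1 and OPR2. COI1 and MYC2 were named after their values were seen. The 5 genes nearest to LOX2 and to VSP2 were named. Of the listed jasmonate genes, DAD1 and THI2.1 were in no table. Alternatives varied the thresholds, centring, low-level filter and scaling of test scores. Python 3.11.15, numpy 2.4.6, pandas 2.3.3, scipy 1.17.1, Biopython 1.88 and matplotlib 3.10.9 were used.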

Additional observations from a re-analysis of the deposited data

Results flagged for a closer look

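These 13 results are nitrate responses that differed between 2 settings by the test of the difference itself. With H2O2 against without, in wild type, the response was higher for LOX2 by 0.46, LOX3 by 1.31, LOX4 by 0.76, AOS by 0.80, AOC1 by 0.59, AOC3 by 0.47, OPR3 by 0.34 and VSP1 by 1.57 on the log2 scale. In nlp7-1 against wild type it was higher for LOX3 by 0.77, LOX4 by 0.86 and AOC3 by 0.63. In hbi-q against wild type it was higher for LOX4 by 0.88. Between the mutants it was higher in nlp7-1 for AOC2 by 1.3. All but the last use the same wild-type nitrate response. Higher includes a weaker fall, since LOX3, LOX4, AOC1 and OPR3 fell with nitrate in wild type without H2O2.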

How the results depend on the processing

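No paired analysis was possible because the deposited tables hold comparisons and no values per library. For the same reason leaving out each replicate and a count test were not run. For H2O2 against mock, fold minimums, centring and the low-level filter gave no value, since that table holds called genes only. Of 503 single-gene values under alternatives, 425 kept their side of the threshold, 51 fell short of it and 27 newly passed. Only centring altered the values themselves, so the other alternatives could not change a direction. With centring, the LOX4 response difference between the mutants went from -0.0213 to 0.0005, and it was called in neither case. With no fold minimum the members called numbered 7 in wild type, 7 in hbi-q, 6 in nlp7-1 and 8 with H2O2. With at least 1.5-fold they numbered 6 in wild type, 5 in hbi-q, 5 in nlp7-1 and 6 with H2O2, where 31.0%, 32.5%, 31.9% and 26.2% of all genes passed. At an adjusted p under 0.01, the response differences called 1 member for nlp7-1 against wild type, 5 with H2O2 against without and 0 between the mutants, and hbi-q against wild type called 4 in mock and 0 after KNO3. With at least a 2-fold difference, the counts were 0 for nlp7-1 and 0 for hbi-q against wild type, 2 with H2O2 against without, and for the genotypes 1 in mock and 0 after KNO3. Dividing scores by their robust SD gave 0 for nlp7-1 and 0 for hbi-q against wild type, 2 with H2O2, 0 between the mutants, 1 in mock and 0 after KNO3. Scores over all genes were wider than the normal distribution (robust SD 1.295 to 1.97). Underestimated error and real differences in many genes can both widen them. With genes of a base mean over 100 only, nlp7-1 against wild type called 4 members in response (AOC2 newly, adjusted p = 0.0480), and hbi-q against wild type called 2 members in response (LOX3 newly, adjusted p = 0.0400) and 2 after KNO3 (LOX4 newly, adjusted p = 0.0458). The recovery error left 3 in mock and 0 after KNO3. Shares of all genes are not given for the stricter adjusted p, the 2-fold difference, the scaled scores, the base mean filter or the recovery error. Member counts at those settings therefore cannot be set against a background. All 6 alternatives for the genotype tests were added after seeing the data. Precision differed between members, and the standard error of a response difference reached 0.47 for VSP1. How depth bears on it was not tested, since depth per library is unknown.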
